A study of Mus musculus with 3 samples.

Results

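The miR-290 to miR-295 cluster is a group of mouse miRNA hairpins that lie next to each other on chromosome 7. Its members were chosen by name, as every mature miRNA called miR-290a, miR-290b, miR-291a, miR-291b, miR-292a, miR-292b, miR-293, miR-294 or miR-295, from either arm of its hairpin. This rule found 11 of the 627 miRNAs in the count table. They were measured in ovaries from newborn CD1 mice after 72 h of culture in 0, 10 or 100 μM DEHP, a phthalate plasticizer, with 1 library per concentration. All 3 groups received the same medium with serum, the 0 μM group received the vehicle DMSO, and each library came from pooled whole ovaries. In whole ovaries, fewer cells of a type and less of a miRNA per cell cannot be told apart. No replicate exists, so no p-value is given, and intervals at 95% cover counting error only, not the variation between cultures.

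The cluster is known from pluripotent cells and early germ cells of the mouse, where one long primary transcript is cut into several hairpins. Each hairpin can give a mature miRNA from its 5′ side (5p) and one from its 3′ side (3p). A miRNA finds its targets mainly through its seed, bases 2 to 8, and several 3p members carry a seed that is shared with other miRNAs which favour cell division and block differentiation. The 5p members carry other seeds.

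The mature sequences below are shown because members with the same seed, and nearly the same sequence, had very different ratios between libraries. RefSeq held a mature sequence for 10 of the 11 members, and miR-292a-3p was the one without an entry. Sequences are RefSeq's on GRCm38.p6, 5′ to 3′, with the seed in capitals, and the members that share a seed follow each other.
miR-290a-5p: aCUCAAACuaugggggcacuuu
miR-292a-5p: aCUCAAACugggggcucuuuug
miR-293-5p: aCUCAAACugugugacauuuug
miR-291a-3p: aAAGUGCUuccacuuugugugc
miR-294-3p: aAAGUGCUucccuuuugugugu
miR-295-3p: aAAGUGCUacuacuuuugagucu
miR-291a-5p: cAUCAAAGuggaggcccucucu
miR-291b-5p: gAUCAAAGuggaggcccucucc
miR-291b-3p: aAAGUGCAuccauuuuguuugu
miR-293-3p: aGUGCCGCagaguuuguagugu

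The 9 hairpins of the cluster lie within 2216 bases, at chr7:3218626-3220841 of GRCm38. The 7 on the plus strand are, in order, Mir290a (chr7:3218626-3218708), Mir291a (chr7:3218919-3219000), Mir292 (chr7:3219189-3219270), Mir291b (chr7:3219482-3219560), Mir293 (chr7:3220343-3220422), Mir294 (chr7:3220641-3220724) and Mir295 (chr7:3220773-3220841). The other 2, Mir290b and Mir292b, lie on the minus strand, inside Mir290a and Mir292. In GENCODE M21 the 7 hairpins from Mir291a to Mir295 overlap exons of Nlrp12, a protein-coding gene on the minus strand, so that all of them but Mir292b are antisense to it. Mir290a and Mir290b overlap no other GENCODE gene. All 11 members with counts come from plus-strand hairpins, and 7 further mature names of the cluster were not analysed here.

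Library totals were between 5064602 and 5952274 counts, and counts were divided by size factors to give normalized counts. The size factors of the libraries were 1.38 (0 μM), 1.35 (10 μM) and 0.546 (100 μM), and the 10 most abundant miRNAs held 45.4% of the counts at 0 μM and 70.5% at 100 μM. None of these 10 is a cluster member, since the best placed member was 96th in the 100 μM library. A ratio to the 100 μM library therefore depends on the scaling, and scaling to total counts would lower every such ratio to 0 μM by 1.52 on the log2 scale. Shares within the cluster and within a hairpin do not depend on it.

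The cluster as a whole was a small part of each library. Its members summed to 5095 counts at 0 μM, which is 0.0970% of the library (exact binomial interval 0.0943% to 0.0997%). At 10 μM they summed to 4241 counts, or 0.0837% (0.0812% to 0.0863%). At 100 μM they summed to 5762 counts, or 0.0968% (0.0943% to 0.0993%). The share was lower at 10 μM, beyond counting error, and the shares at 0 and 100 μM had overlapping intervals. With the rows of each ID summed, the shares were 0.0737%, 0.0610% and 0.0841% at 0, 10 and 100 μM. How close the shares at 0 and 100 μM lay thus rests on which rows enter the library total. In normalized counts, where the size factors enter, the sums were 3697, 3146 and 10556 in order of concentration. The log2 ratio of the sums was -0.23 (-0.29 to -0.17) for 10 against 0 μM and 1.51 (1.46 to 1.57) for 100 against 0 μM. With total-count scaling the second of these was -0.0027, so whether the summed cluster was higher at 100 μM rests on the choice of scaling.

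Which members made up the cluster differed between the libraries, in shares that need no scaling. At 0 μM the largest member was miR-293-3p, with 29.6% of the cluster's counts (interval 28.4% to 30.9%), against 21.8% at 10 μM and 9.22% (8.48% to 9.99%) at 100 μM. The share of miR-292a-5p was 17.3% at 0 μM (16.2% to 18.3%), then 25.2% (23.9% to 26.6%) and 46.1% (44.8% to 47.4%) in the libraries of 10 and 100 μM. Thus miR-292a-5p took a larger share at each higher concentration and miR-293-3p a smaller one, with no overlap of intervals. miR-294-3p held 9.09%, 8.44% and 20.7%, a share that stood apart only in the 100 μM library. miR-293-5p held 10.5%, 12.0% and 1.35%, and its share was far lower in the 100 μM library than in both others. Together with miR-295-3p, which held 14.3%, 12.9% and 9.79%, these members gave most of the cluster in each library.

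**Figure D1:**
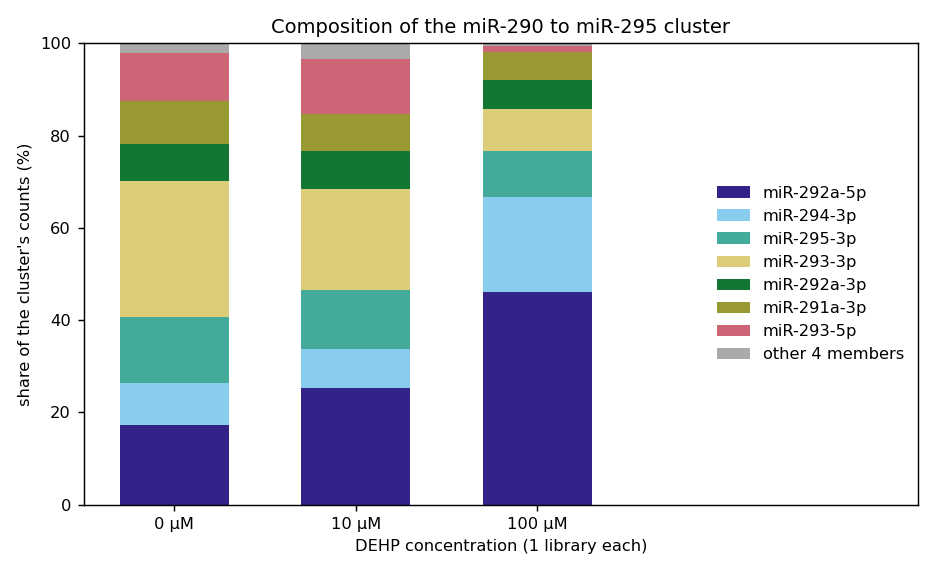
Stacked bars give the share of the cluster's counts, in percent, held by each member in the library of 0, 10 and 100 μM DEHP. The dark blue part, miR-292a-5p, goes from 17.3% to 46.1%, and the yellow part, miR-293-3p, from 29.6% to 9.22%.

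Levels of single members were compared as log2 ratios, with 0.5 added to each normalized count, and a miRNA was compared if its normalized counts averaged 10 or more. This minimum was met by 9 of the 11 members and by 587 of all miRNAs. The 2 members under it were those of the Mir291b hairpin. At 100 against 0 μM, 2 of the 9 members had a log2 ratio above 2, and 10.4% of all miRNAs did. None of the 9 was below -2, against 9.37% of all miRNAs. At a threshold of 1, 3 members were above, against 26.7%, and 1 was below, against 25.7%. With 9 members, these counts are too few to set the cluster apart from the background. The median of the 9 was 0.93, and that of all miRNAs was -0.01. With the 2 low members counted in, the median of the 11 was -0.11, so the sign of the median rested on the minimum. The ratios of the 9 had a standard deviation of 1.47, against 1.60 over all miRNAs, so neighbours in 1 locus were spread nearly as widely as miRNAs in general.

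The 2 members above 2 were miR-292a-5p and miR-294-3p. miR-292a-5p comes from the 5′ arm of Mir292 and has the seed CUCAAAC. Its counts were 879, 1070 and 2657 at 0, 10 and 100 μM, which are normalized counts of 638, 794 and 4868. Its 100 μM level was 7.63-fold that at 0 μM, a log2 ratio of 2.93 (2.82 to 3.04), and ranked 17th from the top among the 587 ratios. With total-count scaling this ratio was 1.42, still above 0. Among all miRNAs of a library it moved from place 221 by count to 197 and 96.

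miR-294-3p carries the seed AAGUGCU, that of the cell-cycle promoting 3p members. It had 463, 358 and 1192 counts at 0, 10 and 100 μM, or 336, 266 and 2184 normalized counts. The 100 μM library was the high one, and the 10 μM library was slightly below 0 μM. The log2 ratio was 2.70 (2.54 to 2.86) for 100 against 0 μM and 3.04 for 100 against 10 μM. With total-count scaling these were 1.18 and 1.50.

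Both other members with the seed of miR-294-3p had much smaller ratios. miR-291a-3p had 465, 336 and 351 counts (337, 249 and 643 normalized), with a log2 ratio of 0.93 (0.73 to 1.13) at 100 against 0 μM. miR-295-3p had 729, 549 and 564 counts (529, 407 and 1033 normalized), with a log2 ratio of 0.97 (0.80 to 1.13). miR-292a-3p, from the 3′ arm of Mir292, was close to them with 408, 352 and 361 counts and a log2 ratio of 1.16 (0.95 to 1.37). These 3 ratios turned to -0.59, -0.55 and -0.36 with total-count scaling, so their direction is not set by the counts alone.

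The ratios of these members to each other within a library need no scaling. miR-291a-3p kept a nearly constant ratio to miR-295-3p, at 0.638 (interval 0.567 to 0.718), 0.612 and 0.622 for 0, 10 and 100 μM, with overlapping intervals. The ratio of miR-294-3p to miR-291a-3p was 0.996 (0.874 to 1.13) at 0 μM, 1.07 at 10 μM and 3.40 (3.01 to 3.84) at 100 μM. These 2 miRNAs have the same first 11 bases and 19 of 22 bases in common. Likewise the ratio of miR-294-3p to miR-295-3p went from 0.635 and 0.652 to 2.11 (1.91 to 2.34). So miR-294-3p left its seed partners in the 100 μM library, while the other 2 stayed together.

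**Figure D2:**
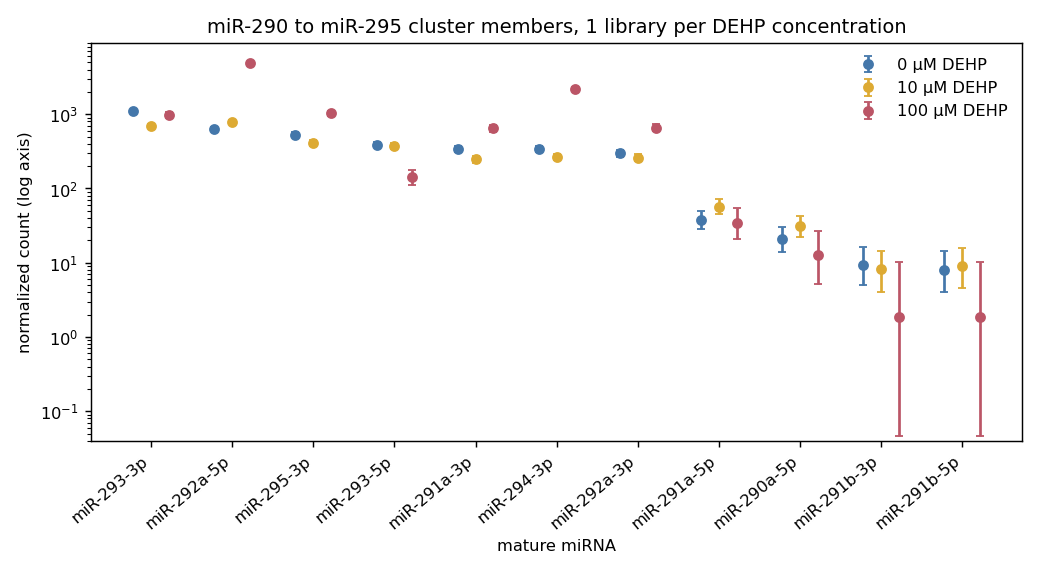
Points give the normalized count of each of the 11 members, on a log axis, in the libraries of 0 (blue), 10 (yellow) and 100 μM DEHP (red), and bars give exact Poisson intervals, which cover counting error only. miR-292a-5p and miR-294-3p stand highest at 100 μM, with 4868 and 2184 normalized counts, and miR-293-5p stands lowest there among the 7 members over 100 at 0 μM.

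On the low side stood miR-293-5p, the 5p partner of miR-293-3p. From 537 and 509 counts at 0 and 10 μM it went to 78 at 100 μM, or in normalized counts from 390 and 378 to 143. Libraries at 0 and 10 μM did not differ beyond counting error, and the 100 μM library was 2.72-fold lower than 0 μM, a log2 ratio of -1.44 (-1.81 to -1.10). It was the lowest ratio among the 9 members, and with total-count scaling it was -2.95. miR-293-3p, from the same hairpin, had 1509, 925 and 531 counts and 1095, 686 and 973 normalized counts. Its log2 ratio was -0.67 (-0.79 to -0.56) for 10 against 0 μM, the lowest of the cluster there, and -0.17 (-0.32 to -0.03) for 100 against 0 μM.

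miR-292a-5p and miR-293-5p, which were at opposite ends of the cluster, are close in sequence. They share the seed, the first 10 bases and the last 5, and are identical in 17 of 22 positions when aligned from the 5′ end. There were 1.64 counts of miR-292a-5p for each count of miR-293-5p at 0 μM (interval 1.47 to 1.83). The 10 μM library had 2.10 (1.89 to 2.34) and the 100 μM library 34.1 (27.2 to 43.2). The GC content was 50.0% in miR-292a-5p and 36.4% in miR-293-5p, and the part of base composition in their ratios was not tested. miR-294-3p, which was also high, had a GC content of 40.9%, below the 45.5% of miR-291a-3p.

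The remaining 4 members were low in all libraries. miR-290a-5p, which has the seed of miR-292a-5p, had 29, 42 and 7 counts, and its log2 ratio of -0.69 at 100 against 0 μM had an interval from -2.15 to 0.51. miR-291a-5p had 52, 77 and 19 counts and a log2 ratio of -0.11 (-0.96 to 0.67). Both intervals held 0 with the size factors. With total-count scaling the ratios were -2.15 and -1.60, and as shares of the cluster both were lower at 100 than at 0 μM. miR-290a-5p held 0.569% at 0 μM against 0.121%, and miR-291a-5p held 1.02% against 0.330%, with intervals that did not overlap for either. miR-291b-3p had 13, 11 and 1 counts and miR-291b-5p 11, 12 and 1. Their single count at 100 μM is under the floor of 3 counts, or 5.50 normalized counts. With the size factors, the intervals of their ratios to 0 μM, up to 0.37 and 0.66, included no change. As shares of the cluster they held 0.255% and 0.216% at 0 μM, against 0.0174% each at 100 μM. These intervals did not overlap either, but each 100 μM share rests on a single count. For all 4, a lower share need not be a lower level, since miR-292a-5p and miR-294-3p took larger shares at 100 μM. For example, miR-291a-3p held 9.13% at 0 μM and 6.09% at 100 μM, while its normalized count went from 337 to 643. miR-291a-5p and miR-291b-5p differ at 2 of 22 bases, so reads could be shared between them, and how such reads were assigned is not given in the sources used here.

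**Figure D3:**
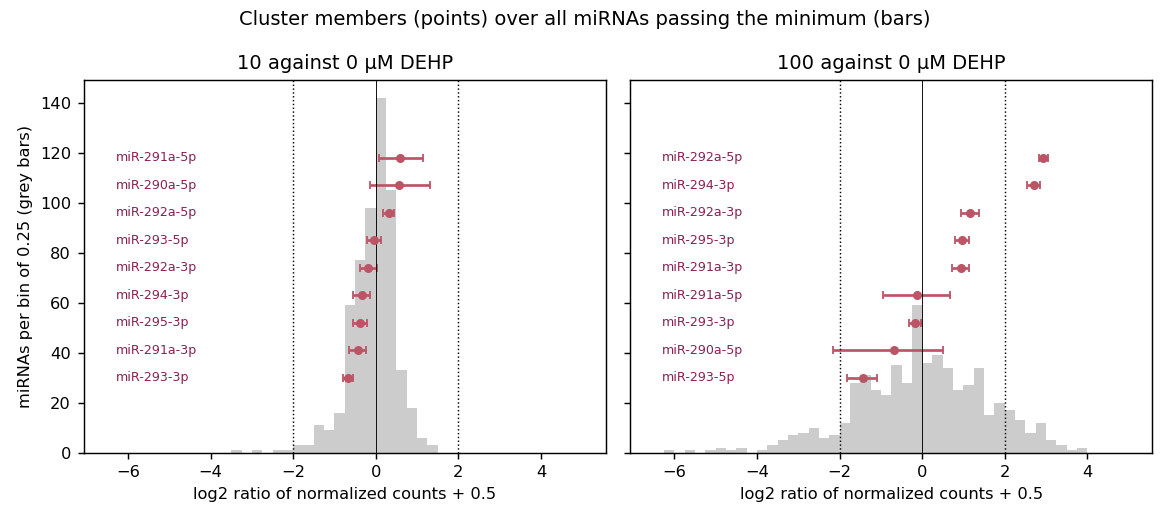
Grey bars count the 587 miRNAs by log2 ratio, in bins of 0.25, for 10 against 0 μM (left) and 100 against 0 μM DEHP (right). Red points with counting intervals are the 9 cluster members, their height only separates the names, and dotted lines mark -2 and 2. At 100 μM, miR-292a-5p and miR-294-3p lie beyond the right dotted line, and miR-293-5p, at -1.44, is the lowest member.

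At 10 against 0 μM the cluster moved little. No member was above 2 or below -2, against 0% and 0.681% of all miRNAs. The ratios of the 9 went from -0.67 for miR-293-3p to 0.59 for miR-291a-5p, with a median of -0.18 beside 0.02 for all miRNAs. For 4 of the 9 the counting interval lay below 0, and these were the 3p members miR-293-3p, miR-291a-3p, miR-295-3p and miR-294-3p. For 2 it lay above 0, and these were the 5p members miR-292a-5p, with 0.32 (0.19 to 0.45), and miR-291a-5p, with 0.59 (0.07 to 1.13). For the other 3 it held 0. Over all miRNAs the interval lay below 0 for 27.1% and above 0 for 28.1%.

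Between 10 and 100 μM the 2 members above 2 were again miR-294-3p and miR-292a-5p (2.62), against 12.3% of all miRNAs, and none was below -2, against 8.69%. At a threshold of 1, 5 of the 9 were above, against 29.5%, and 2 below, against 24.7%. This comparison uses the same 100 μM library as the one before and is no second observation of it. miR-293-5p had a log2 ratio of -1.40 and miR-293-3p one of 0.50, which changed sign to -1.03 with total-count scaling.

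The 5 members from 5p arms held 29.6% of the cluster's counts without DEHP (interval 28.3% to 30.9%), 40.3% (38.8% to 41.8%) with 10 μM and 47.9% (46.6% to 49.2%) with 100 μM. At 100 μM miR-292a-5p alone gave 2657 of the 2762 counts of 5p arms, and each of the other 4 had fewer counts than at 0 μM. The median count of all miRNAs was also lower, at 97 against 232, so fewer raw counts do not set these 4 apart. For 3 hairpins both arms met the minimum, and the share of the 3p arm could be followed in each of them without any scaling. In miR-292a the 3p arm held 31.7% (29.2% to 34.3%) at 0 μM, 24.8% (22.5% to 27.1%) at 10 μM and 12.0% (10.8% to 13.2%) at 100 μM. In miR-293 it held 73.8% (71.8% to 75.6%), 64.5% (62.0% to 67.0%) and 87.2% (84.3% to 89.7%). In miR-291a it held 89.9% (87.0% to 92.4%), 81.4% (77.3% to 85.0%) and 94.9% (92.1% to 96.9%).

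All 3 hairpins thus had less 3p arm at 10 than at 0 μM, with intervals that did not overlap. On the log2 scale of the 3p to 5p ratio the shifts were -1.03 for miR-291a, -0.63 for miR-293 and -0.50 for miR-292a, each lower than the lower quartile of -0.42 over the 174 hairpins with both arms measured. Only that of miR-291a passed 1 toward the 5p arm, as did 7.47% of the 174, and none passed 1 toward the 3p arm, against 10.3%. At 100 against 0 μM the hairpins parted. miR-292a moved toward 5p by -1.77, beyond 1, as did 27% of the 174. miR-293 moved toward 3p by 1.27 and miR-291a by 1.04, as did 39.1%. For miR-291a the intervals of the 3p share at 0 and 100 μM overlapped, and its 5p arm had only 19 counts at 100 μM. Moves beyond 1 between the arms were thus common in the 100 μM library and are not particular to the cluster.

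**Figure D4:**
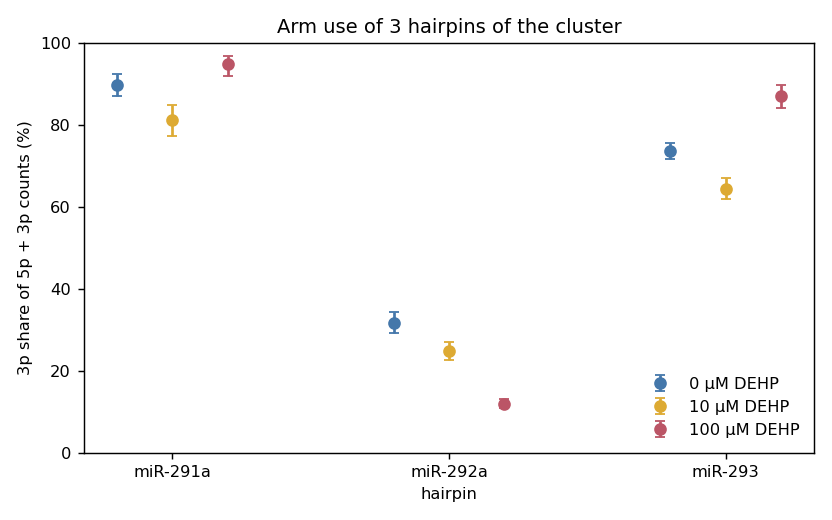
Points give the 3p share of the 5p and 3p counts, in percent, for 3 hairpins in the libraries of 0 (blue), 10 (yellow) and 100 μM DEHP (red), with exact binomial intervals. At 10 μM all 3 are lower than at 0 μM, and at 100 μM miR-292a is down to 12.0% while miR-293 is at 87.2%.

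Along the locus the ratios of 100 against 0 μM were not ordered from one end to the other. The 2 high members came from Mir292, near the 5′ end of the cluster, and Mir294, near its 3′ end, and the low member miR-293-5p from Mir293 between them. Mir295, whose hairpin starts 2147 bases after the start of Mir290a and is the next one after Mir294, gave a ratio of 0.97 beside 2.70 for its neighbour.

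**Figure D5:**
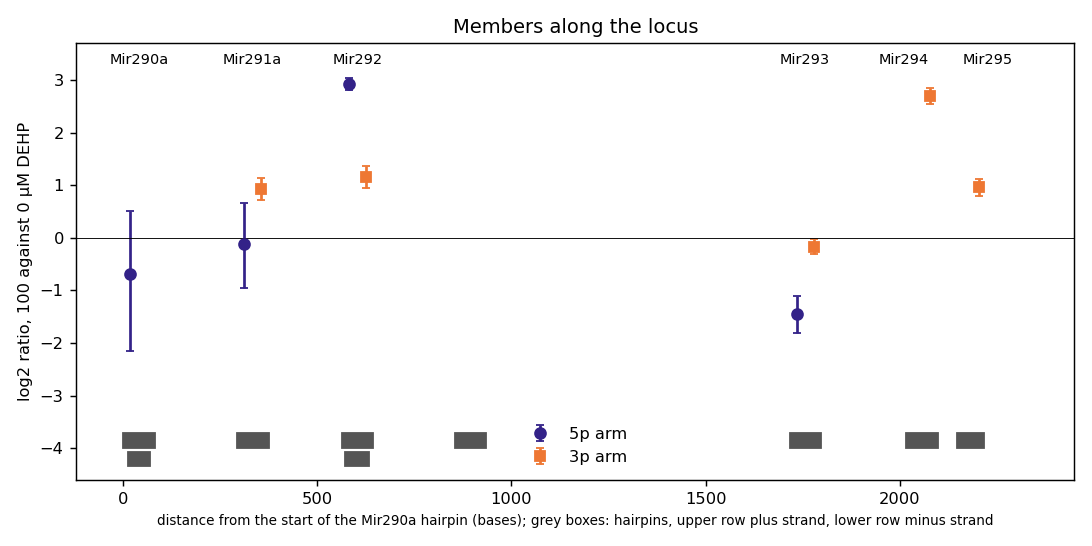
Points give the log2 ratio of 100 against 0 μM for the 9 members above the minimum, with counting intervals, at the distance of their hairpin from the start of Mir290a in bases, with 5p arms as blue circles and 3p arms as orange squares. Grey boxes are the hairpins to scale, the upper row on the plus strand. High ratios are found at Mir292 (2.93) and Mir294 (2.70), with lower ones at the hairpins beside them, and Mir291b had no member above the minimum.

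Grouped by seed, 3 members carried CUCAAAC, 3 AAGUGCU and 2 AUCAAAG, and the seeds of miR-293-3p and miR-291b-3p were each carried by 1 member. Those with CUCAAAC (miR-290a-5p, miR-292a-5p and miR-293-5p) held 28.4% of the cluster at 0 μM, 38.2% at 10 μM and 47.6% (46.3% to 48.9%) at 100 μM, almost all of it miR-292a-5p in the last library. Those with AAGUGCU (miR-291a-3p, miR-294-3p and miR-295-3p) held 32.5%, 29.3% and 36.6% (35.3% to 37.8%). The share of miR-293-3p alone, given above, overlapped that of the CUCAAAC group within counting error at 0 μM and was below both groups in the DEHP libraries. The seed of miR-293-3p, GUGCCGC, was not found in any mature miRNA outside the cluster in the RefSeq table used, and neither was CUCAAAC. The seed of miR-291b-3p was also that of miR-350-5p, which had 42, 47 and 23 counts and a log2 ratio of 0.46 at 100 against 0 μM. RefSeq's miR-302b-3p and miR-302d-3p also carry AAGUGCU and had no row that could be analysed here.

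Of the miRNAs outside the cluster with the same or a shifted seed, the list held 10 names, the miR-302 and miR-17 families, and the 6 of the miR-17 family had counts. Their ratios at 100 against 0 μM went from -2.69 for miR-106a-5p (85, 84 and 5 counts) to -0.96 for miR-93-5p (9629, 10988 and 1963 counts), with a median of -1.59. Of these 6, 0 were above 2, against 10.4% of all miRNAs, and 2 below -2, against 9.37%. They were lower at 100 μM under each scaling tried. The cluster's AAGUGCU group had sums of 1657 and 2107 counts in the libraries of 0 and 100 μM. The log2 ratio of these sums was 1.68 (1.59 to 1.78), or 0.17 with total-count scaling. In this group only miR-294-3p had more counts at 100 than at 0 μM. The log2 ratios of miR-291a-3p and miR-295-3p were 0.93 and 0.97, but -0.59 and -0.55 with total-count scaling, the direction of the miR-17 family. The miR-17 family summed to 39860 and 5172 counts in the same libraries. No name of a list of 10 from the miR-302 and miR-367 cluster, another cluster of pluripotent cells, had a row analysed here.

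Germ-cell miRNAs of the X chromosome were set beside the cluster, because both are known from germ cells. Of that group 32 had counts and 30 met the minimum, with a median of -0.12 at 100 against 0 μM, or -1.64 with total-count scaling. The 32 summed to 87425, 79290 and 449358 normalized counts at 0, 10 and 100 μM, or 2.29%, 2.11% and 4.12% of the library. At 100 μM miR-881-3p alone gave 170434 of their 245275 counts. Of the 30, 6 were above 2, against 10.4% of all miRNAs, and 3 below -2, against 9.37%. The highest was miR-881-3p at 3.18 (47423, 34173 and 170434 counts), and the lowest was miR-465d-3p, whose count of 0 at 100 μM makes it at least 2.51-fold lower against the floor of 3 counts. The upper bound of its counting interval was -0.89 on the log2 scale. miR-465a-3p, miR-465b-3p and miR-465c-3p had identical counts, so these rows are not independent.

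Markers of other cells were set beside these values. The summed normalized count at 0, 10 and 100 μM was 46170, 52252 and 9855 for both endothelial miR-126a arms, 31188, 40382 and 19964 for both arms of miR-202, a gonadal miRNA, 948, 1009 and 835 for 3 of 4 blood miRNAs, and 411417, 366679 and 1072790 for all 5 stromal miRNAs. None of these was at 0 in any library. Both endothelial arms were below -2 at 100 against 0 μM (-3.12 and -2.12), as were 9.37% of all miRNAs. No gonadal, blood or stromal miRNA above the minimum was below -2 or above 2, where 10.4% of all miRNAs lay. These lists are too short to be told from the background by such counts. Within the lists the directions differed, with 0.78 for miR-202-3p beside -0.74 for miR-202-5p, and 1.92 for miR-143-3p beside -1.20 for miR-145a-5p. As a share of the library the stromal list held 10.8% at 0 μM and 9.84% at 100 μM, so its higher normalized sum rests on the scaling. Gonadal miR-202-5p was among the more abundant miRNAs with 41367 counts at 0 μM. The part of these cell types in the ratios of the cluster was not tested, and concentration, culture and library cannot be told apart.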

How the data were processed

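Ovaries of newborn CD1 mice were cultured with 0, 10 or 100 μM DEHP, and 1 small RNA library was made from pooled ovaries of each group. The authors cut linkers, dropped sequences of low quality, aligned the rest to the mouse genome with bowtie2 and quantified miRNAs in miRDeep2. The deposited values are raw read counts, with a row for each mature miRNA of each precursor. The submitters' processing notes name mm10 and DESeq2. Other versions are not given in the sources used here.

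The table has 961 rows for 627 mature IDs, and the row with the highest total was kept for each ID. Each cluster member fills 1 row. The lowest count was 10 at 0 μM, so a miRNA present only after DEHP is not seen. In R 4.3.3, DESeq2 1.42.0 gave median-of-ratios size factors, and edgeR 4.0.16 gave the TMM and upper-quartile ones. Other steps used Python 3.11.15 and SciPy 1.17.1. Log2 ratios used normalized counts with 0.5 added, a mean of at least 10 and a threshold of 2, the fold limit of the authors' methods. The authors also set an FDR limit, which was not applied here, so a ratio beyond 2 is not a call by their criteria. Their fold changes also span a narrower range. miR-19a-3p and miR-141-3p, which they report as differentially expressed, had log2 ratios of -4.42 and -5.62 here at 100 against 0 μM. Both are larger in size than any log2 fold change they list, so a limit of 2 is looser here than in their lists. No cluster member is in their lists of differentially expressed miRNAs. Intervals at 95% are exact (Clopper-Pearson for shares and ratios, Poisson for counts), and a count of 3 was the floor. Both kinds of interval cover counting error only. The sources name no molecular identifiers, and PCR copies may count as reads, which would make the intervals too narrow. The script was run on simulated Poisson counts with the same size factors. These hold no variation between cultures and no PCR copies, so the run checks the calculation only. Alternatives were other scalings, 1 normalized count added, other minimums, summed rows and a threshold of 1. All members were named, and of the other lists the highest and the lowest ratio and the carriers of a member's seed. The members and lists were chosen with earlier results of these data known. Positions came from RefSeq and GENCODE M21 on GRCm38.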

Additional observations from a re-analysis of the deposited data

How the results depend on the processing

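No paired analysis was possible because each concentration has a single library, which also means that leaving out replicates was not an option. TMM, upper-quartile scaling, summed rows and 1 normalized count added left every member count and every median within its limits, and moved 2 sums slightly, to 1.59 with TMM (100 against 0 μM) and -0.17 with the upper quartile (10 against 0 μM). The scaling to total counts shifted every ratio by its own construction, by -1.52 for 100 against 0 μM and -1.54 for 100 against 10 μM, and without the 10 most abundant miRNAs by -0.63 and -0.66. For other scalings and for no minimum, the share of all miRNAs beyond 2 is not given here. Member counts under those settings thus have no background beside them and do not set the cluster apart. With total counts, 0 members were above 2 and 2 below -2 at 100 against 0 μM, with a median of -0.59 and a sum at -0.0027. At 100 against 10 μM, 0 were above and 3 below, with a median of -0.20 and a sum at 0.21. Ratios to 0 μM then changed sign for miR-291a-3p (-0.59), miR-292a-3p (-0.36) and miR-295-3p (-0.55), and ratios to 10 μM for miR-291a-3p (-0.17), miR-292a-3p (-0.20), miR-295-3p (-0.19) and miR-293-3p (-1.03). Without the 10 most abundant miRNAs, 1 member was below -2 in each comparison with 100 μM and 1 above 2 against 10 μM, the medians were 0.30 and 0.68, the sums 0.88 and 1.09, and miR-293-3p was at -0.15 against 10 μM. With no minimum, 1 member was below -2 in each comparison with 100 μM and the medians were -0.11 and 0.50, since the low Mir291b members enter. At a threshold of 1, 1 member was below at 100 against 0 μM, and 5 were above and 2 below at 100 against 10 μM. The cluster's share of a library was 0.0737%, 0.0610% and 0.0841% at 0, 10 and 100 μM with summed rows, and 0.178%, 0.154% and 0.328% without the 10 most abundant miRNAs in the total, since each of these changes the total and not the cluster. Of the values of single members, seed groups, other lists, arms and shares, 296 stayed within their counting interval, 41 moved with the same sign and 8 changed sign. Depth limits the members under 100 counts, whose intervals at 100 μM were widest.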
